A study of Mus musculus with 15 samples.

Results

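Lung epithelial cells from the niche of 4T1 metastases were compared with epithelial cells from the distal lung by bulk RNA-seq, with 3 libraries in each group. These are 6 of the 15 libraries of the series, taken by their labels as EpCAM niche libraries without shSox9 and EpCAM distal lung libraries. The other 9 libraries are 3 niche epithelium libraries labelled shSox9, 3 of 4T1 cells grown in vitro and 3 of 4T1 cells taken from lungs. All genes of each table entered the comparison, and the 4T1 libraries were used only to mark genes whose level in the niche libraries 4T1 RNA could account for.

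Both groups came from mice, BALB/c in the series' design, given 800000 labeling-4T1 cells by the tail vein, with lungs taken 7 days later and cells sorted by FACS. Each replicate pooled 5 lungs, both groups carry the treatment label control, and no lung without 4T1 cells was compared here. 4T1 is a mouse mammary carcinoma line that grows in the lungs after injection into the blood. The sources used here do not give the sort gates, the age and sex of the mice, or how the labelling marks cells near the tumour cells. The source name is lung epithelial cells and EpCAM stands in the titles. 4T1 cells express Epcam too, so that name does not by itself separate them from lung epithelium.

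The alveolar surface is lined by type II (AT2) cells, which make surfactant, store it in lamellar bodies and act as the stem cells of the alveolus, and by thin type I (AT1) cells, which carry gas exchange. Nkx2-1, Foxa1 and Foxa2 are transcription factors that hold lung epithelial identity, and Sox9 marks the distal tip progenitors of the embryonic lung. Interferon-gamma, a cytokine of T cells and NK cells, acts on 2 promoter elements, the gamma-activated sequence (GAS) and the interferon-stimulated response element (ISRE), and raises the guanylate-binding proteins (Gbp genes), the immunity-related GTPases (Irgm2, Igtp, Tgtp2) and the chemokines Cxcl9 and Cxcl10.

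Genes of the interferon-gamma list rose in the niche libraries, with their values given further on. Promoters of 5 of them that carry the named elements are printed. Gbp5 (GAS) and Irgm1 (ISRE) also held matches in their 150 bases and are not printed. The same 150 bases of Cxcl9, Cxcl10 and Ubd, the 3 largest rises on the list, held no match to either and are not printed, which says only that these letters are not in that window. Each run is the 150 bases before the RefSeq transcription start (GRCm38.p6), 5′ to 3′ in the direction of the gene, with matches on either strand in capitals, either to ISRE (GAAA, 2 bases of any kind, then GAAA again) or to GAS (TTCNNNGAA). Gbp2 lies at chr3:142620513-142620662 (+), Gbp7 at chr3:142530186-142530335 (+), Tgtp2 at chr11:49064213-49064362 (−), Igtp at chr11:58199406-58199555 (+) and Irgm2 at chr11:58214827-58214976 (+).
Gbp2: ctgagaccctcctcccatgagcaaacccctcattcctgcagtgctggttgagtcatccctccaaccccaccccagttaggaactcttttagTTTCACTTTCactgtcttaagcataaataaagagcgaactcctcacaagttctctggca
Gbp7: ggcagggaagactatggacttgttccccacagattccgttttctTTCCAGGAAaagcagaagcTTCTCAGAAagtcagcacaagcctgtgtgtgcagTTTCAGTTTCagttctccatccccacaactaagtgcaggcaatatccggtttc
Tgtp2: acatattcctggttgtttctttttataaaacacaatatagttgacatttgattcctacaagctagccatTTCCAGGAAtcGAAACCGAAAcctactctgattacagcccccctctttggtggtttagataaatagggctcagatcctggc
Igtp: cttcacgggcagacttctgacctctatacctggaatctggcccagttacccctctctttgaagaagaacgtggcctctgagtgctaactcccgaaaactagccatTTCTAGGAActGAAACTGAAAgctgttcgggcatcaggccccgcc
Irgm2: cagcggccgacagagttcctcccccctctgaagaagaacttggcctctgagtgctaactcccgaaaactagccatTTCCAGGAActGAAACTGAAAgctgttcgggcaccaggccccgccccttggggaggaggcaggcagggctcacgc

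The ISRE match began 59 bases before the start in Gbp2, 53 in Gbp7, 70 in Tgtp2, 34 in Igtp and 64 in Irgm2. In Tgtp2, Igtp and Irgm2 a GAS match stood just before the ISRE match, at 81, 45 and 75 bases, and Gbp7 held GAS matches at 106 and 87 bases. Over the 250 bases before the start, 10 of the 13 list members with a RefSeq promoter entry held an ISRE match (76.9%) and 7 held a GAS match (53.8%). Among 11623 tested genes with an entry, 3.4% held an ISRE match and 7.34% a GAS match, and over all 27025 promoters the shares were 3.46% and 8.13%. Genes that rose in the niche libraries held an ISRE match in 4.57% of 3392 promoters and genes that fell in 2.62% of 3556. For GAS these shares were 7.10% and 7.17%, both near that of all tested genes. The list was made of known interferon-gamma targets, so the shares describe the list. A match is a stretch of letters and was not tested as a binding site.

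Library totals were 19241055, 16090224 and 15907316 estimated counts in distal replicates 1 to 3 and 21581590, 21559603 and 16034105 in niche replicates 1 to 3, at which 3 counts stand for 0.139 to 0.189 CPM (counts scaled to the same total in every library). The 10 most abundant genes of each library took 28.1 ± 2.19% of distal counts (SD, n = 3) and 6.99 ± 0.338% of niche counts, and the groups did not overlap (two-sided exact permutation test, p = 0.1, which is the lowest that 3 against 3 can reach). Sftpc alone took 18.4 ± 1.88% and 0.951 ± 0.127%. Mitochondrially encoded genes took 1.18 ± 0.111% and 1.15 ± 0.143%, a difference within the spread between replicates (exact permutation test, two-sided, p = 0.8). Without the 10 most abundant nuclear genes of each library the shares were 1.63% and 1.24%, and the groups did not overlap (exact permutation test, two-sided, p = 0.1). Replicates of a group differed by more than counting noise in every pair, so each library was counted. Epcam and Cdh1 were detected in each niche library, but 4T1 cells express Epcam too, so this does not test the label of lung epithelium. The summed AT2 list was at 13011 to 17603 CPM in the niche and 354 to 867 CPM in the 4T1 in vivo libraries. It was 15.7-fold lower, and the summed macrophage list 8.5-fold higher, in the niche than in the distal libraries. Levels of genes below are CPM after TMM scaling, which corrects for this difference in composition, given for replicates 1, 2 and 3 in that order, and log2 fold changes are niche against distal with their standard error (SE).

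Of 16823 genes tested, 9654 (57.4%) differed at an adjusted p below 0.05 in edgeR's quasi-likelihood test, 4597 higher in the niche libraries (27.3%) and 5057 lower (30.1%). A change of at least 8-fold was called upward for 220 genes and downward for 1007. In 65.2% of all genes tested the niche libraries lay entirely above or below the distal ones, so a call or a lack of overlap was common here and lists are read against these shares. The median log2 fold change of all tested genes was −0.04. Without composition scaling the median was 0.30 and the split was 7299 higher and 3344 lower, a move from 47.6% to 68.6% of calls upward, so small changes up to about that shift of 0.35 depend on the scaling.

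Genes of 4T1 cells were detected in the niche libraries. A panel of 43 genes, each at 5 CPM or more in every 4T1 library and nearly silent in the distal libraries, stood at 18.8, 19.4 and 10.5% of its 4T1 in vivo level in niche replicates 1, 2 and 3 (median over genes), and at −0.196 to 0.3% in the distal libraries. Niche replicate 3 had the lowest share of the niche libraries. The distal values are low by the choice of the panel, so they do not test whether distal libraries hold 4T1 RNA. Whether other cells in the niche libraries express panel genes was not tested. Single panel genes varied, with Exosc6 at 10.1, 0 and 0.29% and Lncenc1 at 79.9, 136 and 28.7% in niche replicates 1, 2 and 3. A share of 25% was assumed, above the panel median of each niche library but not above every panel gene. A called gene was therefore marked where a mixture of 25% 4T1 RNA and 75% distal RNA would reach the measured niche mean. This marked 1008 of the 4597 rises (21.9%) and 546 of the 5057 falls (10.8%), leaving 3589 rises and 4511 falls. The number of marked rises depends on the assumed share, with 37 at 10% and 2184 at 50%, and so does each statement below that a rise was or was not marked. A mark says that the level could be reached with 4T1 RNA, not that it was. Marks compare levels without composition scaling and were not computed on TMM-scaled levels. For genes near the mixture level they are therefore uncertain.

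**Figure D1:**
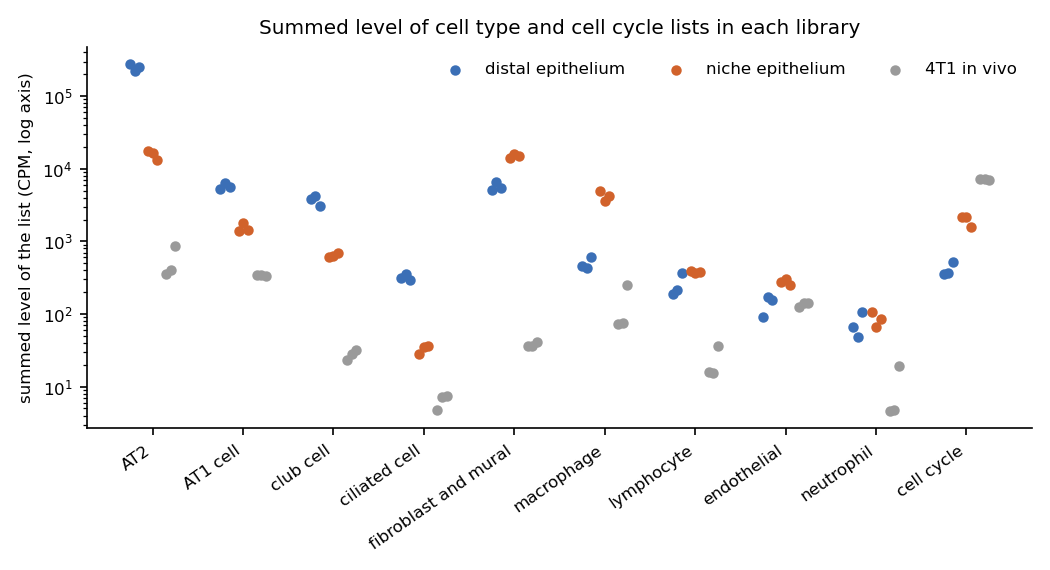
Summed level of 10 gene lists in each library (y axis, CPM without composition scaling, log axis), for the distal, niche and 4T1 in vivo libraries, 3 points each. The AT2, AT1, club and ciliated lists sit lower in all 3 niche libraries, while the macrophage and fibroblast lists sit higher there and lower in 4T1 cells than in either lung group.

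The AT2 programme was lower throughout in the niche libraries. All 20 AT2 surfactant and lamellar body genes fell, with no overlap between the groups for any of them and a median log2 fold change of −4.05. Sftpc (chr14:70520949-70524081, GRCm38), which encodes surfactant protein C, was at 241261, 182107 and 203712 CPM in the distal libraries and at 9051, 8912 and 7313 in the niche libraries. Every niche library was below every distal one, a log2 fold change of −4.63 (SE 0.26, edgeR adjusted p = 3.9e-07). In these bulk libraries, fewer cells of a type and less RNA per cell cannot be told apart, here and for every cell type list that follows. Sftpc still had the highest level per length of any gene in the niche group, 20631 TPM (the authors' length-normalised unit) against 321435 in the distal group.

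Falls are given here on the log2 scale. The surfactant protein gene Sftpa1 fell by 4.77, Sftpb by 4.47 and Sftpd by 3.95. Lamp3, a lamellar body membrane protein, fell by 4.42, and Abca3, the lipid pump of lamellar bodies, went from 495, 422 and 410 to 40.3, 44.5 and 36.3 CPM, a fall of 3.45 (SE 0.13). The phosphate transporter Slc34a2 fell by 4.57 and the chemokine Cxcl15 by 4.57. The smallest falls of the list were those of the lysosomal genes Dram1 (−2.44), Lyz2 (−2.37) and Ctsh (−1.58), of which Lyz2 and Ctsh are also expressed by macrophages. Summed over the list, the plain CPM was 221823 to 274224 in the distal and 13011 to 17603 in the niche libraries. A share of 25% 4T1 RNA would leave 75% of a distal level, and none of the 20 falls was marked.

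Lipid synthesis genes, which supply surfactant in AT2 cells, fell with them. Of 24 fatty acid and phospholipid synthesis genes 21 fell and 3 rose (median −1.46). Fasn, the fatty acid synthase, was at 699, 548 and 634 CPM against 130, 141 and 104, a log2 fold change of −2.33, and the stearoyl-CoA desaturase Scd1 fell by 3.47. Thrsp, a regulator of lipogenesis, fell by 5.52. The 3 that rose were Elovl6 (1.39, marked), Fads2 (0.64) and Acsl1 (0.39, with overlapping groups, and not called without any 1 of distal or niche replicates 2 and 3). Cholesterol synthesis genes had a smaller median, with 17 of 22 lower and none higher (median −0.57). Lss was the furthest of them, at −1.63.

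AT1, club and ciliated cell genes were lower as well. All 16 AT1 genes fell (median −3.39), 10 of 11 tested club cell genes fell (median −2.72) and all 14 tested ciliated cell genes fell (median −5.62), with none higher in any of the 3 lists. Ager, the AT1 receptor for advanced glycation end products, was at 3476, 3610 and 3569 CPM in the distal and 200.3, 233 and 138 in the niche libraries, a log2 fold change of −4.22 (SE 0.20). Hopx, a transcriptional cofactor of AT1 cells, fell by 3.28. The AT1 genes that fell least were Timp3 (−0.58) and Pdpn (−0.49, with overlapping groups). Both were marked, and both are also expressed by stromal cells.

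Scgb1a1, the secretoglobin of club cells, was at 885, 1427 and 559 CPM in the distal libraries and at 76.7, 83.2 and 61.3 in the niche libraries. The distal libraries differed among themselves by more than the niche libraries did, and the groups stayed apart (−3.70, SE 0.31). Cbr2 and the club cell cytochrome Cyp2f2 fell by 4.81 and 4.71. Of the ciliated list, the axonemal dynein Dnah5 was at 12.2, 14 and 9.31 CPM in the distal libraries and had no count in any niche library, which makes it at least 265-fold lower with a floor of 3 counts over the niche group. Foxj1, the regulator of ciliogenesis, fell from 61.0, 71.4 and 54.0 to 5.59, 9.84 and 3.74 CPM. The named largest falls outside immunoglobulin genes were mostly further axonemal genes, among them Ccdc153 (−6.99), Cfap44 (−6.86) and Dnah12 (−6.81), a grouping noticed after their values were seen. Basal cell genes were low in both groups: 5 of 8 tested fell and 2 rose, Krt14 (3.99) and Ngfr (2.32). Krt14, a keratin of basal cells, was at 26.7, 33.5 and 14.5 CPM in the niche libraries and below 3 CPM in each distal library, while Trp63, the basal cell regulator, fell by 0.82 and Krt5 was 95.2-fold lower (95% counting interval 25.8 to 795).

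Of 22 lung epithelial transcription factors 21 fell and 1 rose (median −3.17). Nkx2-1 (chr12:56531958-56536908) was at 158, 154 and 151 CPM in the distal libraries and at 7.12, 9.30 and 5.32 in the niche libraries, a log2 fold change of −4.39 (SE 0.17, edgeR adjusted p = 5.2e-08). Foxa2 fell by 4.42 and Foxa1 by 4.17. Etv5, a target of FGF signalling that AT2 cells need, fell from 496, 377 and 426 to 47.3, 54.6 and 43.4 CPM. Cebpa fell less, by 1.71, and Foxp1 by 1.20. Sox2, the factor of the airway lineage, was low in the distal libraries and had 1 count over the niche group, 85.6-fold lower (95% counting interval 14.8 to 3440).

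Sox9 was the factor that rose. It lies at chr11:112782224-112787760 (GRCm38). Its level was 5.15, 5.89 and 6.28 CPM in the distal libraries and 56.4, 52.2 and 30.0 in the niche libraries, a log2 fold change of 3.0 (SE 0.24, edgeR adjusted p = 3.2e-06). The groups did not overlap, and niche replicate 3, the library with the lowest 4T1 share, was the lowest of the niche libraries. In 4T1 cells Sox9 stood at 207 CPM in vitro and 349.8 in vivo without composition scaling. The 25% mixture would give 91.3 CPM where the niche mean on that scale was 52.2, so this rise was marked, and the part of 4T1 RNA in it was not tested.

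Epithelial junction and keratin genes fell in 19 of 24 cases and rose in 2 (median −1.94). The alveolar claudin Cldn18 fell from 1059, 946 and 1100.04 to 53.5, 71.9 and 46.9 CPM (−4.17), and Cldn3 fell by 3.94. Cdh1, which encodes E-cadherin, fell from 290.2, 271 and 254 to 72.0, 79.3 and 41.7 CPM (−2.08). Epcam, the antigen in the sample titles, was at 101, 83.2 and 101 CPM in the distal and 60.9, 65.7 and 27.0 in the niche libraries, a log2 fold change of −0.89 (SE 0.26, edgeR adjusted p = 0.014). That call was lost in DESeq2 (adjusted p = 0.0755). Without composition scaling, 4T1 cells carry Epcam at 74.8 CPM in vitro and 51.9 in vivo, and Cldn18 at 0.0702 and 0.830 CPM. These values are not on the scale of the niche and distal levels given here.

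Krt8, a simple epithelial keratin that also marks alveolar cells in transition, was at 218, 205 and 276 CPM in the distal and 409, 432 and 190 in the niche libraries. Niche replicates 1 and 2 were above every distal library and niche replicate 3 was below all of them, and the difference did not pass (0.56, SE 0.26, edgeR adjusted p = 0.088). Without niche replicate 3 it did, at 0.91 (edgeR adjusted p = 0.00042). Cldn4, a claudin of transitional and injured epithelium, rose from 16.9, 12.2 and 13.9 to 128, 141 and 56.9 CPM, a log2 fold change of 2.92 (SE 0.30). It was not marked. Its niche mean of 123 CPM without scaling was close to the 110 CPM of the mixture, so the lack of a mark is uncertain. Epcam, Krt8, Krt18, Cldn4 and Sox9 were each lowest in niche replicate 3 among the niche libraries, the library with the lowest 4T1 share. The part of that share in their levels was not tested. Replicate 3 was also lowest for Nkx2-1, for Cldn18 and for the summed AT2 list (17603, 16720 and 13011 CPM without scaling in niche replicates 1, 2 and 3). It was not lowest for the summed AT1, club and ciliated lists.

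The list of genes of transitional alveolar cells split: 12 of 19 rose, 4 of them marked, and 5 fell (median 0.66). Lgals3 (1.93), Plaur (2.42) and Cdkn1a (0.66) rose and were not marked. Lgals3 and Plaur, which encode galectin-3 and the urokinase receptor, are also genes of macrophages. Hmga2 (3.66) and Fhl2 (2.65) rose and were marked. Itgb6, the epithelial integrin subunit that activates TGF-beta, fell from 38.0, 47.2 and 46.2 to 7.12, 8.68 and 5.04 CPM (−2.64), and Krt19 fell by 1.89. Of 18 stem-associated genes tested 7 rose, 4 of them marked (Sox9, Itgb4, Myc and Itga6), and 6 fell, among them Sox2 and Cd24a (−1.59). The 3 stem-associated rises that were not marked were Aldh1a3 (1.88), Cd44 (1.08) and Sox4 (0.59).

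**Figure D2:**
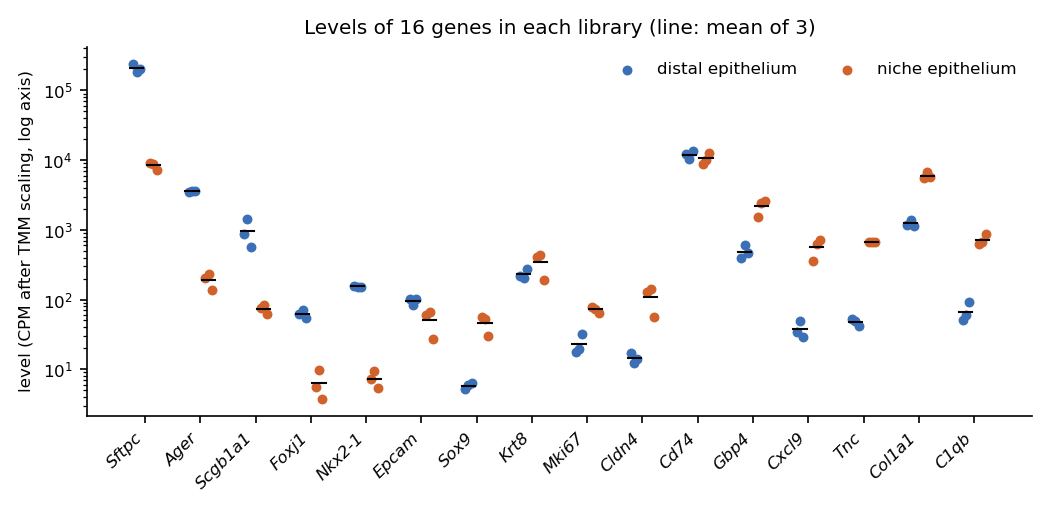
Level of 16 genes in each library (y axis, CPM after TMM scaling, log axis), blue for the distal and orange for the niche libraries, with a line at the mean of 3. Sftpc, Ager, Scgb1a1, Foxj1 and Nkx2-1 are lower in all niche libraries; Krt8 and Cd74 overlap between the groups; Sox9, Gbp4, Cxcl9, Tnc, Col1a1 and C1qb are higher in all niche libraries.

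All 26 cell cycle genes rose (median 2.04), and 20 of these rises were marked. Mki67, which encodes the proliferation antigen Ki-67, was at 17.7, 19.8 and 32.5 CPM in the distal and 78.3, 73.7 and 64.8 in the niche libraries (1.64, SE 0.20). Its niche mean without scaling was 81.5 CPM and the mixture gives 71.6. Besides Mki67, the rises that were not marked were those of Pcna (0.89), Ccnb2 (2.69), Mcm3, Mcm5 and Ccne1. Summed over the list, plain CPM was 353 to 512 in the distal, 1594 to 2192 in the niche and 6959 to 7341 in the 4T1 in vivo libraries. Niche replicate 3, with the lowest 4T1 share, was the lowest of the niche libraries. The part of 4T1 RNA in these rises was not tested.

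Genes induced by interferon-gamma were higher in the niche libraries. Of the 20 on that list 19 rose, 1 fell and no rise was marked (median 1.32). Cxcl9 (chr5:92321347-92328079), a chemokine for T cells, was at 34.7, 49.3 and 29.4 CPM in the distal and 356, 635 and 725 in the niche libraries, a log2 fold change of 3.92 (SE 0.28, edgeR adjusted p = 1.8e-06). Cxcl10, a ligand of the same receptor, went from 14.5, 24.6 and 21.8 to 123, 174 and 199 CPM (3.03). In both chemokines niche replicate 1 was the lowest niche library and still lay above every distal one.

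Every guanylate-binding protein on the list rose. These GTPases attack the vacuoles of intracellular pathogens. Gbp4 was at 393, 598 and 459 CPM against 1547, 2388 and 2574, a log2 fold change of 2.17 (SE 0.22). Gbp10 rose by 1.89, Gbp8 by 1.72, Gbp2 by 1.20 and Gbp7 by 1.06, and the smallest rise of the family was that of Gbp3 (0.43, with overlapping groups). Of the immunity-related GTPases, Irgm1 rose by 0.65, Iigp1 by 0.61, Igtp by 0.56 and Irgm2 by 0.53. These smaller rises are of the size of the shift between scalings. They keep their direction under both, but leaving out the scaling moves log2 fold changes upward, so this does not test them. Tgtp2 rose by 0.98 and Tgtp1 fell by 1.06. These are near-identical neighbouring copies whose reads the counting can divide, so their opposite signs are uncertain. Ubd, an ubiquitin-like modifier, rose by 2.86, and Ido1, the tryptophan-degrading enzyme, by 1.89. The niche mean of Ido1, at 18.7 CPM without scaling, was just above the 18.5 CPM of the mixture. Summed over the list, plain CPM was 4705 to 5853 in the distal, 9915 to 14943 in the niche and 4493 to 7095 in the 4T1 in vivo libraries. On this unscaled measure the niche sums lay above those of the distal and 4T1 in vivo libraries. The part of other cell types in the niche sums was not tested.

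The wider interferon response was raised in part. Of 26 antiviral interferon-stimulated genes 14 rose and none fell (median 0.46). Oasl1 (1.82) and Oas3 (1.73), of the oligoadenylate synthetase family, rose the most, and Ifi44 rose by 1.38. Isg15, Rtp4, Mx2, Stat2 and Ddx58, the last of which encodes the RNA sensor RIG-I, did not pass the test, with log2 fold changes of 0.26, 0.02, 0.06, 0.07 and −0.13. Class I antigen presentation genes rose in 13 of 18 cases and fell in none (median 0.61). Nlrc5, the class I transactivator, went from 23.4, 30.9 and 36.4 to 49.1, 56.1 and 62.5 CPM (0.89), Tap1, of the peptide transporter, rose by 0.79 and B2m by 0.65.

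Class II genes did not move as a list, with 3 of 11 higher and 1 lower (median 0.17). Cd74, the invariant chain, which AT2 cells express strongly in the mouse, was at 12247, 10284 and 13514 CPM in the distal and 8815, 10199 and 12665 in the niche libraries (−0.19, SE 0.19, edgeR adjusted p = 0.42). The groups overlapped, whereas the summed AT2 list was 15.7-fold lower in the niche libraries. H2-Ab1 (0.28) and H2-Aa (0.31) did not pass either, H2-Eb1 rose by 0.82, and Ciita, the class II transactivator, fell by 0.35, a fall that was marked, disappeared without composition scaling and was not called without niche replicate 1 or 2. Ctss, a lysosomal protease of antigen-presenting cells, rose by 3.12.

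Chemokines and myeloid growth factors rose in 17 of 20 cases, 3 of them marked, and fell in 3 (median 1.58). Ccl2, the main ligand that draws monocytes, was at 53.5, 59.6 and 50.6 CPM in the distal and 389, 409 and 569 in the niche libraries, a log2 fold change of 3.06 (SE 0.16). Ccl7 rose by 3.17, Ccl6 by 3.22 and Cxcl14 by 2.27. The neutrophil growth factor Csf3 had the largest marked rise (4.43), from 4.66, 1.62 and 2.68 to 82.5, 59.1 and 54.1 CPM. Cxcl3 fell by 3.68 and Ccl20 by 1.71. The call of Ccl20 was lost by library size alone (edgeR adjusted p = 0.0616), with the shSox9 libraries in the fit, and without any 1 of distal replicates 2 and 3 and niche replicate 2. Csf2, which encodes GM-CSF, a factor that AT2 cells supply to alveolar macrophages, fell from 3.56, 2.84 and 5.15 to 0.765, 0.947 and 0.396 CPM (−2.41).

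NF-kB feedback and inflammatory genes rose in 15 of 20 cases and fell in 3 (median 0.85). Il1a, an alarmin of damaged epithelium, rose by 3.02, the cytokine Tslp by 2.75, the acute phase gene Saa3 by 2.42 and Lif by 2.22. The 3 that fell were Il33, from 977, 489 and 665 to 196, 170.2 and 227 CPM (−1.84), Icam1 (−1.40) and Lcn2 (−1.15), which are all expressed in AT2 or airway cells. Of 17 complement and acute phase genes 11 rose and 2 fell (median 0.65). Cfb, complement factor B, went from 232, 281 and 234 to 778, 915 and 1099.5 CPM (1.90).

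**Figure D3:**
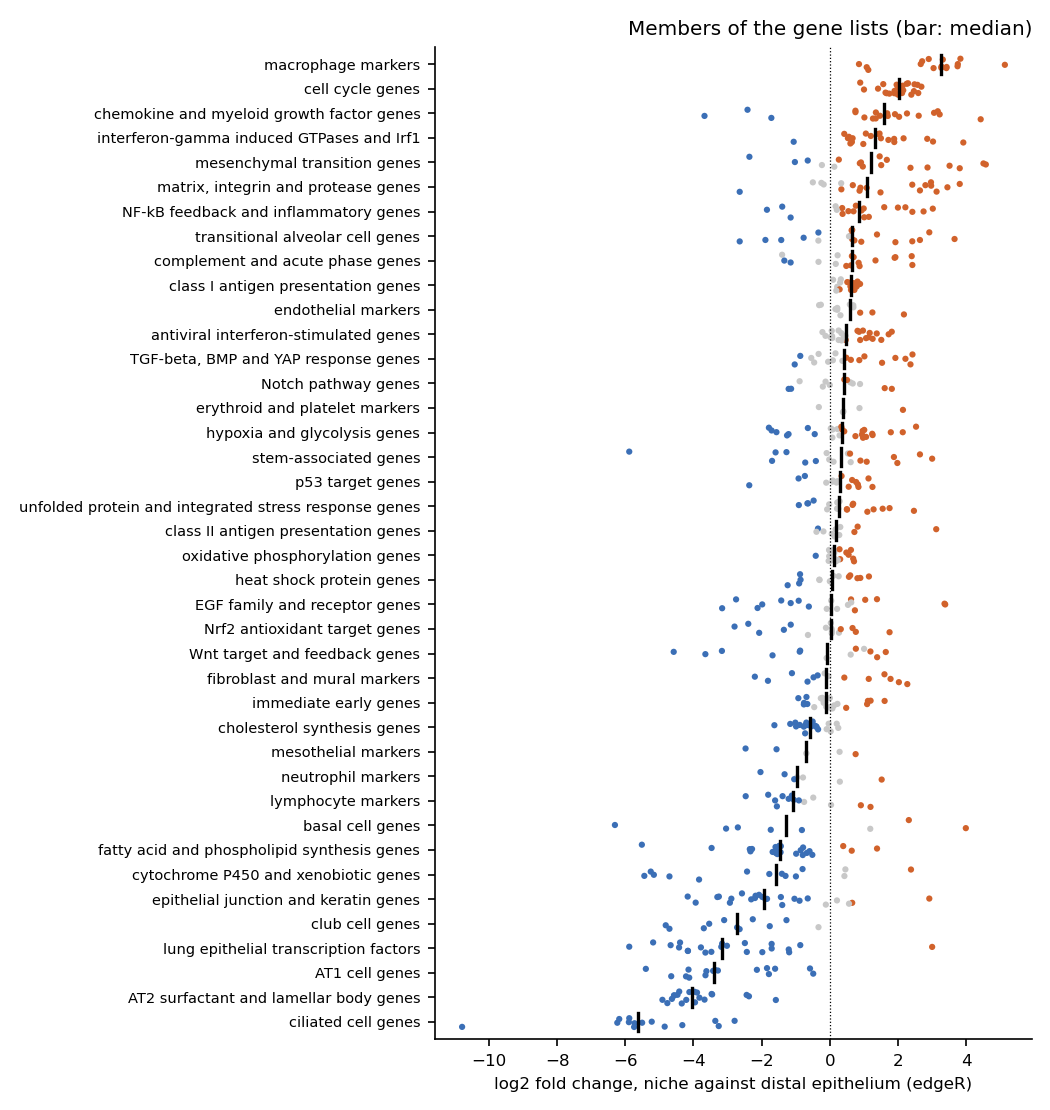
Log2 fold change of each tested member of the gene lists (x axis, niche against distal, edgeR), in orange where it rose, blue where it fell and grey where it did not pass; the black bar is the list's median. Of the lists plotted, macrophage markers have the highest median (3.28) and ciliated cell genes the lowest (−5.62).

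Extracellular matrix, integrin and protease genes rose in 14 of 19 cases, 3 of them marked, and fell in 1, Itgb6 (median 1.08). Tnc (chr4:63959785-64047015), which encodes tenascin-C, a matrix protein of injury and of metastatic niches, was at 51.9, 48.9 and 41.2 CPM in the distal and 660.3, 676 and 663 in the niche libraries. The replicates of each group lay close together, with a log2 fold change of 3.81 between groups (SE 0.12, edgeR adjusted p = 3.6e-08). 4T1 cells had 8.42 CPM in vitro and 26.5 in vivo without composition scaling, below the distal libraries. The urokinase gene Plau rose by 3.45, the metalloproteinase inhibitor Timp1 by 3.13, Mmp13 by 2.98 and Plat by 2.97. Of 18 mesenchymal transition genes 13 rose and 3 fell (median 1.22). Spp1, which encodes osteopontin, rose from 40.1, 31.8 and 54.2 to 1123, 1098 and 651 CPM (4.51), Mmp9 by 3.52 and Snai1 by 1.51, while Snai2 did not pass (−0.23) and Cdh2 fell by 2.36. Twist1 rose from at most 1 count a distal library to 1.57, 1.19 and 0.849 CPM and was marked.

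Macrophage genes were raised throughout. All 16 tested macrophage markers rose, without overlap and with none marked (median 3.28), and their summed plain CPM was 432 to 614 in the distal and 3617 to 4878 in the niche libraries. C1qb, a complement C1q chain made by tissue macrophages, was at 50.2, 59.2 and 92.0 CPM against 618, 675 and 873, a log2 fold change of 3.43 (SE 0.23). Cd68 rose by 2.90, Csf1r by 2.71 and Mrc1 by 3.76. Ptprc, the common leukocyte antigen CD45, rose less, by 1.20.

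Genes of interstitial and alveolar macrophages did not share the same pattern over the niche libraries. Cd163, a scavenger receptor of interstitial and perivascular macrophages, was at 19.0, 30.2 and 27.9 CPM in the niche libraries and below 1 CPM in the distal ones (5.59), and Folr2 (5.01), Cd209f (6.97), Fcrls (4.49) and Ccl8 (4.64) were similarly even. Cd209g had 3 counts over the distal group and was 230-fold higher in the niche group (95% counting interval 78.4 to 1116). Genes typical of alveolar macrophages varied more: Chil3 was at 1033, 165 and 147 CPM in niche replicates 1, 2 and 3 against 23.3, 7.04 and 7.48 in the distal libraries, Ear2 at 54.2, 17.2 and 8.55 against 2.08, 2.03 and 1.48, and Siglecf at 8.41, 3.58 and 2.10 against 0.736, 0.474 and 0.212. Niche replicate 1 was the highest for all 3 genes, and without it the log2 fold change of Chil3 was 3.65 in place of 5.14 and that of Ear2 2.83 in place of 3.83. Marco, the alveolar macrophage scavenger receptor, had no count in any distal library and at most 1.53 CPM in a niche library, at least 13.3-fold higher with a floor of 3 counts over the distal group.

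The chemokine, complement, class II and protease genes named above include several that macrophages express, such as Ctss, Ccl2, Ccl6, Mmp13, Spp1 and Plaur. The part of macrophage RNA in those rises was not tested. The same holds for the interferon-gamma list, whose members most cell types can express.

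Other cell types moved unevenly. Of 14 fibroblast and mural markers 6 rose and 6 fell (median −0.10), while their summed plain CPM was 5066 to 6539 in the distal and 14222 to 15746 in the niche libraries. The collagen genes carried the sum: Col1a1 was at 1176, 1375 and 1148 CPM against 5542, 6670.4 and 5692, a log2 fold change of 2.28 (SE 0.15), and Col3a1 rose by 1.78 and Pdgfrb by 2.03. Inmt and Tcf21, genes of resting alveolar fibroblasts, fell by 1.81 and 1.11. 4T1 cells had at most 40.9 CPM summed over the list. The part of fibroblast RNA in the matrix genes was not tested.

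Endothelial markers rose in 3 of 13 cases, Lyve1 (2.18), Eng (1.25) and Ramp2 (0.89), and fell in none, with Pecam1 at 0.22 and not called. Neutrophil markers were low in both groups, with 1 of 7 tested higher and 3 lower and summed plain CPM of 47.9 to 107 against 65.8 to 106. Of that list, Ly6g and Elane were near 0, with 8 and 0 counts over the distal and 7 and 3 over the niche group. S100a9 and Retnlg were among the 3 that were lower, and both calls were lost in some alternatives. Of 14 lymphocyte markers 9 fell and 2 rose (median −1.08), while their summed plain CPM was 190 to 366 in the distal and 364 to 394 in the niche libraries. Among those that fell were the B cell receptor gene Cd79b (−2.47) and the T cell receptor gene Cd3e (−1.39). The 2 that rose were Ptprc and Cd4 (0.91), both also expressed by macrophages. Mesothelial markers gave 1 rise and 2 falls of 5, and erythroid and platelet markers 1 rise of 5, Pf4 (2.15).

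Immunoglobulin transcripts gave the deepest falls. Of 94 immunoglobulin genes tested 90 fell and none rose (median −6.81). Igha, the heavy chain of IgA, was at 646, 1264 and 1968 CPM in the distal and 8.85, 3.38 and 5.95 in the niche libraries, a log2 fold change of −7.73 (SE 0.50). Jchain, which joins secreted IgA, fell by 6.91, Igkc by 6.38 and the plasma cell chaperone Mzb1 by 5.72, and Igkv1-110 had no count in any niche library and was at least 962-fold lower. Distal replicate 1 was the lowest distal library for Igha, Igkc and Jchain and still lay above every niche library. Ighm, the heavy chain of IgM, overlapped between the groups (0.04). The cardiac myosin genes Myh7 and Myh6 fell by 5.73 and 5.36.

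Targets and ligands of signalling pathways that act in the alveolar stem cell compartment were also listed. Which cells of these bulk libraries carry the changes was not tested, here and for the lists that follow. Of 13 Wnt target and feedback genes 4 rose and 6 fell (median −0.09). Nkd1, a negative feedback gene of Wnt signalling, fell from 135, 109.8 and 119.96 to 13.2, 15 and 12.4 CPM (−3.17), and Sp5 and Rnf43 fell by 4.58 and 3.65, while Lef1 rose by 1.39 and Axin2 did not pass (−0.09). Notch pathway genes gave 4 rises and 2 falls of 13, with the targets Heyl (1.82) and Lfng (1.61) higher and the ligands Jag1 (−1.14) and Jag2 (−1.21) lower. The call of Jag2 was lost by library size alone (edgeR adjusted p = 0.0787), with the shSox9 libraries in the fit, and without any 1 of distal replicates 2 and 3 and niche replicates 1 and 2. Hes1 was nearly level at −0.20 and did not pass.

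Of 19 EGF family and receptor genes 6 rose and 8 fell (median 0.04). The ligands Ereg and Hbegf rose by 3.39 and 1.39, and the ligands Btc and Areg fell by 2.12 and 1.42. The receptors Erbb3 and Fgfr2 fell, Fgfr2 from 258, 185 and 185 to 59.8, 63.8 and 34.9 CPM (−1.98). Of the downstream factors Etv4 rose by 3.37 and was marked, whereas Etv5 fell. TGF-beta, BMP and YAP response genes rose in 9 of 18 cases and fell in 2 (median 0.43), with the receptor kinase Axl from 109, 128 and 138 to 692, 681 and 639 CPM (2.43), and with Tgfbi at 2.37 and Tgfb1 at 1.93.

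Stress and metabolic lists were mixed. Of 22 immediate early genes 5 rose and 5 fell (median −0.12), Jun falling by 0.92 and Egr2 rising by 1.61, and of 14 heat shock genes 5 rose and 4 fell (median 0.05), and both lists are known to respond to tissue dissociation. Unfolded protein and integrated stress response genes rose in 9 of 20 cases, 5 of them marked, led by the serine synthesis enzyme Phgdh (2.47, marked). Of 16 p53 targets 8 rose and 3 fell, with Fas rising by 1.25 and Trp53inp1 falling (−2.36). Hypoxia and glycolysis genes rose in 14 of 26 cases, 9 of them marked, and fell in 7: the glycolytic enzyme Eno1 rose by 1.79 and was marked, and Vegfa, which AT1 cells supply to capillaries, fell by 1.79. Oxidative phosphorylation genes rose in 7 of 22 cases and fell in 1 (median 0.11). Of 16 Nrf2 targets 4 rose and 5 fell, among the latter Gclc of glutathione synthesis (−2.79). Cytochrome P450 and xenobiotic genes fell in 11 of 14 cases (median −1.59), Cyp2b10 by 5.44, while Cyp1b1 rose by 2.38.

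The 15 largest rises among named genes that were not marked, with at least 10 CPM in the niche group and no overlap, were Cd209g, Cd209f, Cd163, Chil3, Folr2, Gpa33, Ccl8, Tfap2a, Spp1, Fcrls, Fst, Dmp1, Myo7a, Wnt10a and Olr1. Fst, which encodes the activin antagonist follistatin, went from 6.25, 9.0 and 4.87 to 115, 159.9 and 157 CPM (4.42). Gpa33 and Tfap2a also belong to the 4T1 panel, since both are expressed by 4T1 cells and nearly silent in the distal libraries. Gpa33 was at 74.9, 85.7 and 35.2 CPM in the niche libraries, again lowest in replicate 3. The part of 4T1 RNA in its level was not tested. Among the 5 largest marked rises were Csf3, Il24 (4.00), Padi3 (3.8) and Glrp1 (3.78).

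**Figure D4:**
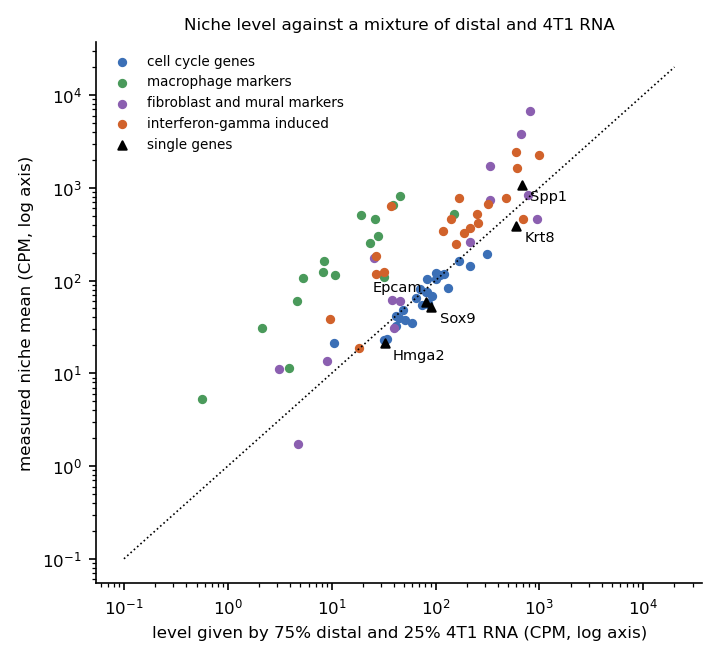
Measured niche mean (y axis) against the level that 75% distal and 25% 4T1 RNA would give, taking the higher 4T1 group (x axis), both in plain CPM on log axes, for members of 4 lists and 5 single genes. Cell cycle genes, Sox9 and Hmga2 lie near or below the dotted line of equal levels; macrophage markers lie well above it and interferon-gamma induced genes mostly above it.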

How the data were processed

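Bulk RNA-seq gene tables of 15 mouse libraries were used, 6 of them in the comparison; other columns of per-sample values were not used. The authors deposited RSEM expected counts and TPM per gene with GRCm38 as build, per the submitters' processing notes and file headers. No source used here names the aligner or the strand setting, so overlapping and antisense genes cannot be told apart. Of 54838 gene identifiers 54809 matched GENCODE M21, which gave symbols. Reads were 75 bases long per the labels.

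Expected counts were rounded and tested with edgeR 4.0.16 in R 4.3.3 (TMM, filterByExpr, glmQLFit and glmQLFTest, group only, Benjamini-Hochberg over all genes tested, threshold 0.05). DESeq2 1.42.0 was an alternative, and the fit was tested on simulated counts first. Few genes were changed in that simulation, and the groups had no difference in composition. It therefore does not test the scaling for the difference in composition seen here. Deposited TPM was used only to compare levels between genes. Lists were described by counts and medians, without a set test. Exact permutation tests used SciPy 1.17.1.

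Named genes were the 15 largest rises and falls past the threshold whose libraries did not overlap and whose higher group averaged 10 CPM or more, without unnamed gene models and, for rises, marked genes; the 5 largest marked rises; up to 4 members each way from each list; and a fixed set such as Sox9, Sftpc and Epcam. Further list members and genes such as Myh7 were named after their values were seen. A few genes that these rules name are not reported here. The comparison, the 40 gene lists (674 genes) and the rules were chosen with earlier results of these data known. A 4T1 panel gene had at least 5 CPM in every 4T1 library and a distal mean at most 2% of the lower 4T1 group mean; a library's share is the median over the panel of its excess over the distal mean, relative to that of 4T1 in vivo. Replicates are pools of 5 lungs; whether pools share mice is not given, so p-values measure the spread between these libraries. Whether replicate numbers pair the groups is not given either, and they were not used in the main fit. Intervals and floors cover counting error only.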

Additional observations from a re-analysis of the deposited data

How the results depend on the processing

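By library size alone, 7299 genes were called higher and 3344 lower, and 1576 rises were marked as within reach of 4T1 RNA, against 4597, 5057 and 1008 with TMM. RLE size factors gave 4709 and 4924, DESeq2 4758 and 5005, tests without a filter on low counts 4968 and 5483, a minimum of 1 CPM in 3 libraries 4632 and 4650, and a fit with the shSox9 libraries 5025 and 4554. Leaving out each library in turn gave 4180 to 4754 higher and 4331 to 4969 lower. The marks depend on the assumed 4T1 share: 37 rises at 10% and 2184 at 50%. The share itself was 14.3 to 15.8% under other panels or a ratio of sums, against 16.3%, and 19.1% without niche replicate 3. The difference in the mitochondrial share of counts became −0.545 percentage points once the 10 most abundant genes of each library were left out, which in niche replicate 1 removed 1 mitochondrial gene. With the 10 most abundant nuclear genes left out in its place, an alternative chosen after seeing the data, it was −0.395 (exact permutation tests, two-sided, p = 0.1 for both). The causes were not tested.

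Whether replicate numbers pair the libraries is not given. Deviations of same-numbered libraries correlated at 0.059, 0.053 and −0.0096, which cannot show whether they share mice. With a replicate block, 4432 genes were higher and 4837 lower.

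Most named genes were picked for large or called changes, so how many kept their call does not describe all called genes. That share was not computed for all called genes. Of 291 called named genes, 267 kept direction and call in every alternative that tested them, and 24 lost it in at least 1. These were Epcam (library size only, adjusted p = 0.107; DESeq2, 0.0755), Krt18, Atf3, Fosb, Hspa1a, Hspa1b, Cd8a, Ccl20, Retnlg, S100a9, Jag2, Gdf15, Msln, Acsl1, Xbp1, Mfap4, Mmp2, Clu, Dnajb9, Sesn2, Itgb3, Ndufb3, Ankrd37 and Ciita, whose log2 fold change of −0.35 became 0.00128 by library size alone. Krt8 and Gpx3 gained a call in some. Depth limits genes near 3 counts a library, such as Twist1, Sox2 and Marco.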
